A study of Mus musculus with 3 samples.

Results

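The left-out low-mitochondrial barcodes were 68 of the 4108 droplet barcodes in the deposited matrix. Each carried a hashtag call for a single mouse, had less than 5% of its gene UMIs (unique molecular identifiers, 1 per captured molecule) in mitochondrially encoded genes, and was nevertheless absent from the authors' list of 3470 kept cells. The hashtag call, the mitochondrial share and the absence from the list are the values that chose them. Helios-deficient mice 1 and 2 gave 12 and 23 of them, wild-type mice 1 and 2 gave 12 and 21. Another 304 single-mouse barcodes left out of the list had a mitochondrial share of 5% or more, 231 barcodes were called doublets between mice and 35 had no hashtag call.

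The series profiled Lin- Sca1+ Kit+ (LSK) bone marrow cells from 2 mice labelled Helios-deficient (hashtags 1 and 2) and 2 wild-type mice (hashtags 3 and 4), to learn what the transcription factor Helios, encoded by Ikzf2, does in this mixed compartment. RNA, 4 surface proteins (CD41, CD48, CD150 and CD135, which is Flt3) and the hashtags, carried by antibodies to CD45 and MHC class I, were read in the same droplets. Per the labels, 2500 cells of each mouse were pooled and loaded in 1 run with a 3 prime chemistry, so all 4 mice shared 1 set of libraries and the mouse is the replicate (n = 2 per genotype). The labels used here give no strain, age or sex and do not say which part of Ikzf2 was lost.

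LSK cells hold the blood stem cells and the earliest multipotent progenitors. Cells that enter the red cell lineage switch on Gata1, which binds GATA sites, and Klf1, a zinc finger factor that binds CACCC boxes, and then lose Sca1 and CD34 while they divide quickly. Cells of that kind, plasma cells and dividing progenitors are known to carry more RNA than a resting stem cell, and droplet studies commonly remove barcodes with very many UMIs because a droplet with a pair of cells also has many.

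All 68 left-out barcodes exceeded the largest listed cell in at least 1 of 3 totals. These were gene UMIs (listed maximum 32870), summed antibody tag UMIs (738) and summed hashtag UMIs (3047). Gene UMIs alone were over in 26 barcodes, antibody tags alone in 18 and hashtags alone in 17. All 3 totals were over in 5 barcodes, gene UMIs and hashtags in 1, and tags and hashtags in 1. The limits lay close to the nearest left-out values: 32884 gene UMIs, 740 tag UMIs and 3148 hashtag UMIs. Of the 35 barcodes without a hashtag call, 0 exceeded any of the 3 limits. The criteria of the list are not stated, so the 3 totals, and tag or hashtag levels that follow from them, are given below as a description with no test.

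**Figure D1:**
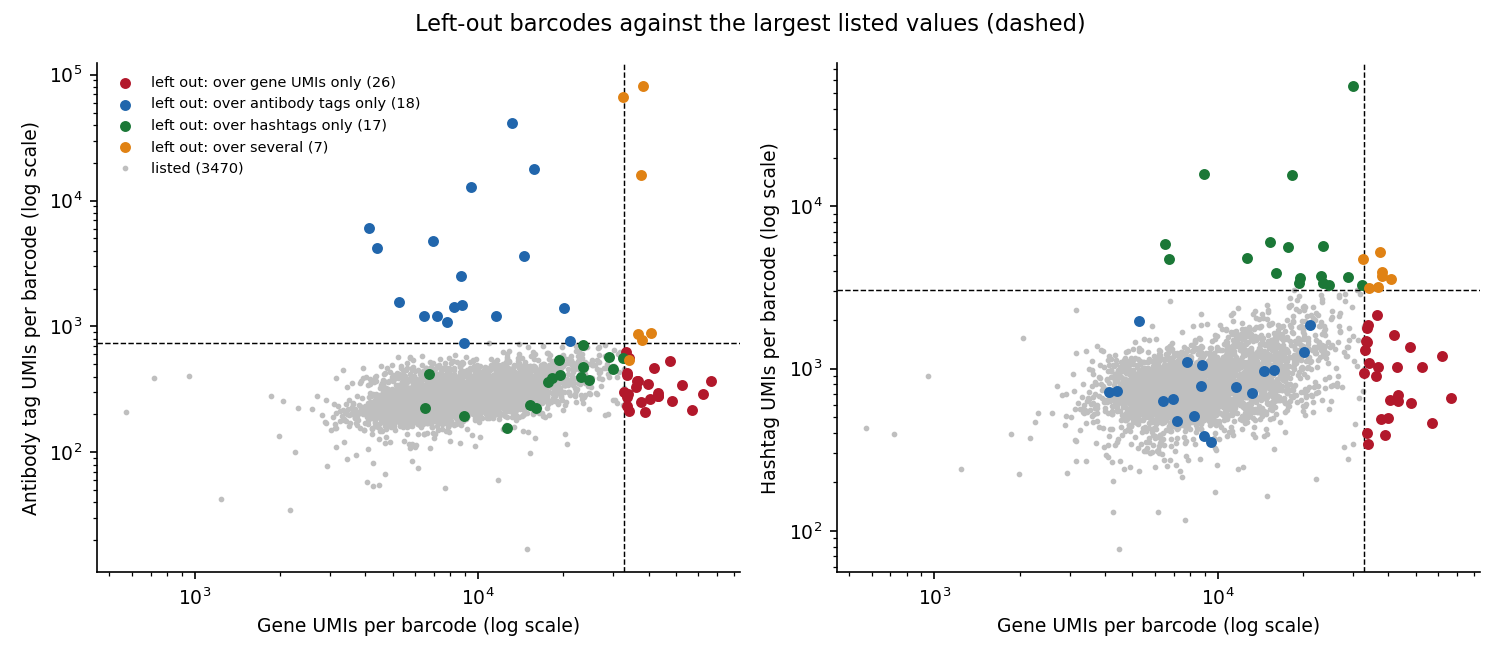
Gene UMIs per barcode (x axis, log scale) against antibody tag UMIs (left) and hashtag UMIs (right, log scales) for the left-out barcodes, coloured by the total in which they exceed the listed cells, and for the 3470 listed cells in grey. Dashed lines mark the listed maxima of 32870 gene UMIs, 738 tag UMIs and 3047 hashtag UMIs, and each coloured point lies beyond at least 1 of them.

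The mitochondrial share of the left-out barcodes ran from 0.946% to 3.83%, with a median of 2.32%, against a median of 2.52% in the listed cells. The second highest was 2.99%, so the 5% limit fell in a gap of the left-out single-mouse barcodes, the lowest on its other side being at 5.04%. Median gene UMIs were 31209 in the left-out barcodes, against 7898 in the listed cells, and the median numbers of genes detected were 4966 and 2692. The second most abundant hashtag had a median of 78 UMIs in the left-out barcodes, against 76 in listed cells and 215 in barcodes called doublets. The single-mouse and doublet calls were themselves made from the hashtags, so these medians are a description. They cannot show whether a barcode held a pair of cells from the same mouse. RNA of Kit was found in 52 of the 68 (76.5%) and of Ly6a, which encodes Sca1, in 43 (63.2%), against 53% and 58.9% of listed cells, at unequal depth. Per gene UMI the order was the other way, with Kit at 66.8 CPM and Ly6a at 77.1 CPM in the left-out barcodes, against 90.3 and 146 CPM in listed cells, where CPM is the count scaled to 1e+06 gene UMIs.

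Among single-mouse barcodes under 5% mitochondrial UMIs, 2.11% and 2.72% were left out in the Helios-deficient mice, against 1.01% and 2.25% in the wild-type mice. The genotypes overlapped, and the difference of 0.784 percentage points had an exact permutation p of 0.667 (two-sided, n = 2 per genotype, where the smallest possible p is 0.33). Barcodes over the gene UMI maximum made up 1.23% and 1.42% in Helios-deficient mice, against 0.421% and 0.856% in wild-type mice. These did not overlap, with a difference of 0.685 percentage points and the smallest exact permutation p that 2 against 2 mice allow, 0.33. Listed cells were deeper in the Helios-deficient mice too, with medians of 8670 and 8461 gene UMIs, against 7599 and 7627 in wild-type mice. Listed cells with at least 20000 gene UMIs numbered 35 of 557 and 51 of 824, against 27 of 1175 and 32 of 914. The part of depth in this split was not tested. Hashtag-high barcodes split by mouse rather than by genotype: each Helios-deficient mouse had 5, against 0 and 14 in wild-type mice 1 and 2.

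The 32 barcodes over the gene UMI maximum were mostly erythroid by their RNA. Klf1 had at least 7 UMIs in 19 of them (59.4%, exact 95% interval 40.6 to 76.3) and at most 1 UMI in the other 13. Helios-deficient mice 1 and 2 gave 3 and 9 of the 19, wild-type mice 1 and 2 gave 4 and 3. Of the 3470 listed cells, 16 (0.461%) had 5 or more Klf1 UMIs, a limit chosen after these values were seen. Depth was unequal in this comparison. Of the 145 listed cells with at least 20000 gene UMIs, 15 (10.3%) reached that limit. Of all single-mouse, low-mitochondrial barcodes at that limit, the list therefore left out 19 of 35 (54.3%, exact 95% interval 36.6 to 71.2). By mouse the left-out share was 3 of 7 and 9 of 14 for Helios deficiency and 4 of 6 and 3 of 8 for wild type. This share depends on the limit, which deep barcodes reach more easily. With 3 or more Klf1 UMIs there were 19 left-out barcodes and 28 listed cells, and with 7 or more 19 and 15. The 19 left-out Klf1 barcodes held 32884 to 66285 gene UMIs (median 40428), against 19645 to 32492 (median 27027) in the 16 listed ones. Intervals of this kind cover counting error only.

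Apart from depth, the left-out and the listed Klf1 cells had many but not all values near each other. The values are given with no test because Klf1 itself chose both. Summed over cells, Klf1 reached 410 CPM in the left-out and 365 CPM in the listed Klf1 cells. Car1 (carbonic anhydrase 1, an early red cell enzyme) reached 4305 and 3511 CPM, and Rhd (a Rhesus blood group protein) 242 and 208 CPM. Mt2 (metallothionein 2) was further apart at 556 and 410 CPM, as were the globin genes Hba-a1 at 106 and 171 CPM and Hbb-bs at 9.73 and 37.4 CPM. Ly6a was found in 5 of 19 left-out and 2 of 16 listed Klf1 cells, and Cd34 in 4 of 19 and 0 of 16. Kit was found in 18 of 19 and 10 of 16. Antibody tag totals had medians of 279 UMIs in the left-out and 262 in the listed Klf1 cells, the CD48 tag had medians of 128 and 122.5, and the own hashtag had medians of 538 and 508.5. Each of these medians lay close to that of all listed cells or below it (271 tag UMIs, 111 CD48 UMIs and 642 hashtag UMIs), while gene UMIs were several times higher. Markers of other lineages were scarce in the 19: Itga2b, Flt3 and Jchain had 0 UMIs, Pf4 at most 2, and Elane, Mpo and Dntt at most 1 per cell.

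The other 13 barcodes over the gene UMI maximum fell into 4 kinds by their leading RNA, with limits again chosen after the values were seen. In 3, all from Helios-deficient mice, Pf4 (platelet factor 4, a megakaryocyte product) had 292 to 448 UMIs, Itga2b (CD41) 4 to 22, and the CD41 tag 65 to 209, against a listed median of 33 CD41 tag UMIs. In 2, 1 per genotype, the neutrophil granule genes Elane and Mpo had 142 to 295 and 244 to 430 UMIs. In 1, from wild-type mouse 2, Igkc, Ighm and Jchain (the chains of secreted antibody) took 41.2%, 17.8% and 6.10% of 36348 gene UMIs. It had 3363 genes, 0 UMIs of Kit and Cd34 and 28 of Ly6a. The listed cells held 4 such immunoglobulin-led barcodes, and 1 of those, at 32870 gene UMIs, was the deepest listed cell. The remaining 7 had Cd34 (8 to 26 UMIs), Mpo (3 to 29) and Cd48 (5 to 22) in every barcode, with Flt3 in 6 and Dntt in 6, and 0 UMIs of Klf1 and Car1. Of these 7, 6 were also over the hashtag maximum and 5 of those over the tag maximum, led by CD48, whereas the other 25 deep barcodes of the Klf1, Pf4, Elane and immunoglobulin kinds were over the gene UMI maximum alone.

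**Figure D2:**
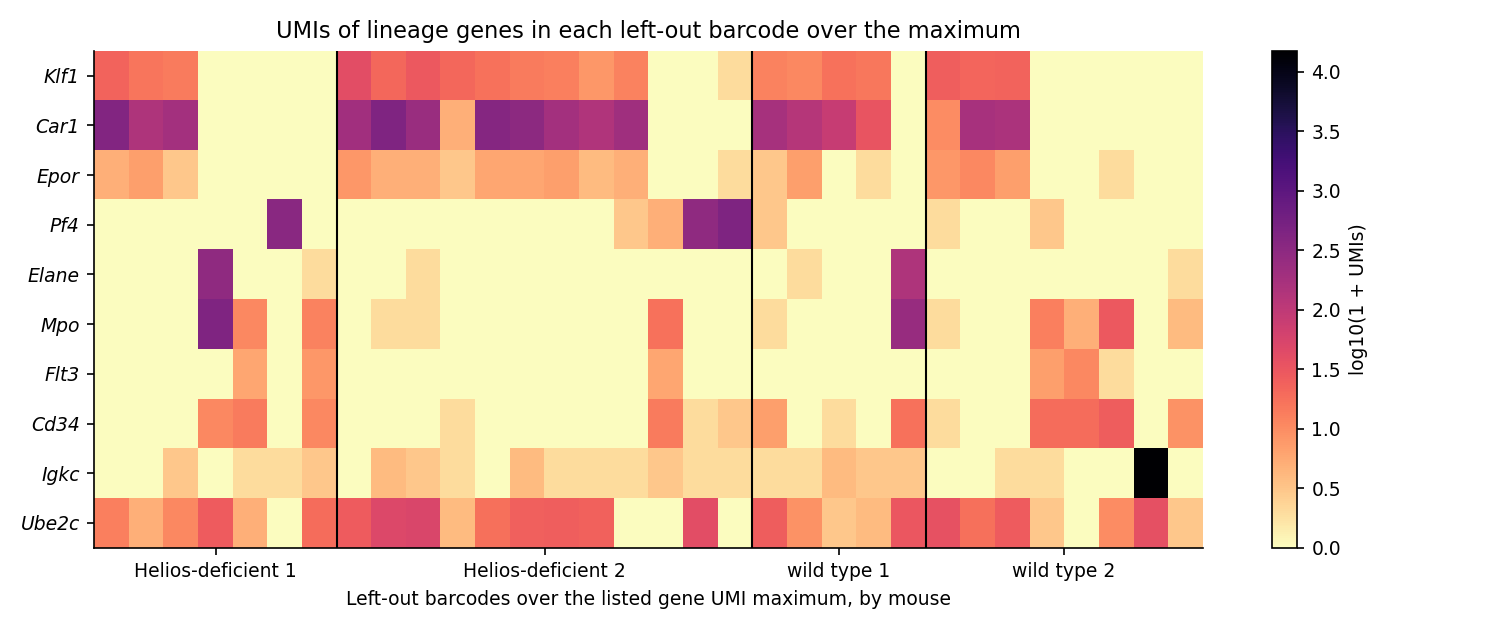
UMIs of 10 lineage and division genes (rows) in each of the 32 left-out barcodes over the gene UMI maximum (columns, grouped by mouse), coloured by log10(1 + UMIs). Columns with Klf1 and Car1 make up 19 of 32, and the Pf4, Elane and Igkc columns hold little or no Klf1.

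RNA of 2 lineages in 1 barcode can come from a droplet that held a pair of cells. Barcodes were thinned to 1 depth before such RNA was counted, each class in a random draw of its own. After each barcode was thinned to 5000 gene UMIs, at least 2 of Elane, Dntt, Pf4 and Car1 were found in 2 of 66 left-out barcodes (3.03%, exact 95% interval 0.369 to 10.5). The share was 2.45% in listed cells (77 of 3138), 3.45% in listed cells with at least 20000 gene UMIs (5 of 145) and 5.24% in doublets called by hashtag (11 of 210, interval 2.64 to 9.18). The left-out interval holds all 3 other shares, so a difference was not detectable with 66 barcodes. Thinned to 10000 UMIs, where 53 left-out barcodes were deep enough, the share was 11.3% (6 barcodes, interval 4.27 to 23.0), against 5.84% in listed cells, 7.59% in deep listed cells and 10.9% in doublets. Car1 alone was found in 17 of the 32 barcodes over the UMI maximum after thinning (53.1%), against 11.7% of the deep listed cells and 2.84% of all listed cells. Pairs of cells from the same mouse carry 1 hashtag, and their number among the left-out barcodes was not tested.

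UMI counts were summed per mouse for the left-out barcodes over the gene UMI maximum and for the listed cells, and compared with edgeR's quasi-likelihood test with the mouse as a block (adjusted p by Benjamini and Hochberg, threshold 0.05). The gene UMI total chose the 32 barcodes, whereas the share of it that each gene took did not. Of 10176 genes tested, 3064 passed (30.1%), with 1377 higher (13.5%) and 1687 lower (16.6%), and the median log2 fold change over all genes was −0.16. Leaving out Helios-deficient mouse 2, which gave 12 of the 32, left 1787 calls. A log2 fold change below is left-out over listed, with its standard error (SE) and 4 mice.

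Red cell genes rose together. Of the 17 genes on the erythroid list, all of which were tested, 14 rose, 1 fell and 2 (Apoe and Hbb-bs) did not pass, with a median log2 fold change of 3.40. Klf1 stood at 192 and 314 CPM in Helios-deficient and 271 and 218 CPM in wild-type left-out sums, against 10.6, 12.2, 5.14 and 11.96 CPM in the listed cells of those mice in the same order. No left-out value came near a listed one, and Klf1 rose by 4.76 on the log2 scale (SE 0.17, edgeR adjusted p = 6.2e-154). Gata1, the partner factor of red cell and megakaryocyte genes, reached 92.1 and 141 CPM in Helios-deficient and 127 and 89.7 CPM in wild-type left-out sums, against 15.9, 14.5, 9.79 and 17.8 CPM in listed cells. Its log2 fold change was 3.07 (SE 0.21). Blvrb, a biliverdin reductase of red cells, had 433, 765, 701 and 481 CPM in the left-out sums, against 59.9, 71.6, 47.7 and 59.7 CPM in listed cells, and rose by 3.40 on the log2 scale (SE 0.13).

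Receptors and surface proteins of the lineage showed the same separation. Epor, the erythropoietin receptor, had 46.0 to 76.9 CPM in the left-out sums, against 2.52 to 7.83 CPM in the listed cells (log2 fold change 3.66, SE 0.32). Tfrc, the transferrin receptor that brings iron into the cell, rose by 2.75, Aqp1, a water channel, by 3.70 and Ermap, an erythroid membrane protein, by 5.73 on the log2 scale. Rhd rose by 5.77 (SE 0.87, edgeR adjusted p = 0.026), a call that was lost when Helios-deficient mouse 1 or wild-type mouse 2 was left out. Carbonic anhydrases differed in size of change: Car1 rose by 5.40 and Car2 by 1.37. Among the globins, Hba-a1 rose by 3.34 and Hba-a2 by 2.18, whereas Hbb-bt fell by 1.55, with levels of 3.84 to 37.2 CPM in the left-out sums, against 32.9 to 86.9 CPM in listed cells. Hba-a1 and Hba-a2 are near-identical copies, as are Hbb-bs and Hbb-bt, so counts within each pair are uncertain, and free globin RNA in droplets was not measured.

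Of the 10 genes with the largest rises, 3 (Rhd, Sphk1 and Ermap) were on the erythroid list and 7 were not. Add2 (beta adducin of the red cell membrane skeleton) rose by 6.49, Cldn13 (a claudin) by 6.18, Slc38a5 (an amino acid transporter) by 6.09, Sphk1 (sphingosine kinase 1) by 5.73, Col5a1 (a collagen chain) by 5.69, Nxpe2 by 5.54, Mt2 (metallothionein 2) by 5.52 and Prss50 (a serine protease relative) by 5.44 on the log2 scale. Add2 had 30.7 and 65.0 CPM in Helios-deficient and 47.8 and 32.03 CPM in wild-type left-out sums, against 0 to 0.831 CPM in listed cells. Each of these genes had its 4 left-out values above its 4 listed values. A higher left-out value within each of the 4 mice was a condition for naming them, so that agreement is no support.

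The windows of 250 bases before the start of erythroid list genes are shown because these genes rose together and because Klf1 and Gata1, the factors that bind such letters, were among them. Capitals mark CACCC or its reverse GGGTG and GATAA or its reverse TTATC, searched on both strands, with no overlap between the motifs. Sequences are from RefSeq (GRCm38.p6), 5′ to 3′ on the gene's strand, for Klf1 at chr8:84901732-84901981 (+), Epor at chr9:21963577-21963826 (−), Rhd at chr4:134864286-134864535 (+) and Ermap at chr4:119189996-119190245 (−).
Klf1: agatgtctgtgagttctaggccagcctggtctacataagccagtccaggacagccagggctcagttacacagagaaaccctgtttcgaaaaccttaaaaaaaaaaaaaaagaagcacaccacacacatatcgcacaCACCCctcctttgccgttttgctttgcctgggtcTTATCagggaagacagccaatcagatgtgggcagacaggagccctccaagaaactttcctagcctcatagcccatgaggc
Epor: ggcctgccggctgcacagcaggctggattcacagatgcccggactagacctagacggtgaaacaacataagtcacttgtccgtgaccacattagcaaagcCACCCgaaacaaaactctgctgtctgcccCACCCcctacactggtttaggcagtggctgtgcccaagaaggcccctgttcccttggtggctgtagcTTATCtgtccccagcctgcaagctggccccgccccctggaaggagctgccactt
Rhd: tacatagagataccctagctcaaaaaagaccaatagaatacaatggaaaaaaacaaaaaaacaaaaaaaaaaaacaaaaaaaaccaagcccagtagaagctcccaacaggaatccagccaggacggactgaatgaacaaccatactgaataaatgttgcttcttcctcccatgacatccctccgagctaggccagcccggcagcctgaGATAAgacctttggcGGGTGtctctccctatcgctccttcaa
Ermap: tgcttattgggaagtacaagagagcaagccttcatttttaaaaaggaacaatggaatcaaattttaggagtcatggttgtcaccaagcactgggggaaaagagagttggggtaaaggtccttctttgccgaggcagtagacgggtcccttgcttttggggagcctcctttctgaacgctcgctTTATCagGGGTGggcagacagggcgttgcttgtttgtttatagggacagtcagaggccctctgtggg
Of the 10 erythroid list genes with 1 promoter entry, 8 held GATAA, 10 held CACCC and 8 held both, against 22.6%, 52.0% and 10.1% of 32851 mouse promoter windows of the same length. Hbb-bt, which fell, and Hbb-bs, which did not pass, held both as well. Klf1, Epor, Rhd and Ermap, shown above, were among those with both, whereas Gata1 and Aqp1, which rose, held 0 GATAA. List genes with several entries were left out of these counts, while the 32851 windows include such genes. Of those list genes, Tfrc, Blvrb and Apoe held 0 GATAA in each window, and Sphk1 held it in some. The near-identical windows of Hba-a1 and Hba-a2 were counted as separate genes, as were those of Hbb-bs and Hbb-bt. A match describes these letters and shows no binding.

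Genes of division and growth rose as well. Of 52 tested G2 and M phase genes 37 rose and 0 fell (median log2 fold change 0.94), and of 42 S phase genes 16 rose and 4, among them Ung, Cdca7 and Dtl, fell (median 0.25). Ube2c, which marks cyclins for destruction in mitosis, had 288 and 477 CPM in Helios-deficient and 366 and 413 CPM in wild-type left-out sums, against 115, 114, 79.8 and 97.6 CPM in listed cells (log2 fold change 2.03, SE 0.13). Cenpa, the centromere histone, rose by 2.02 and Birc5, survivin, by 1.501. Of 20 MYC target and nucleolar genes 17 rose, among them Odc1 (ornithine decarboxylase, 1.22), Srm (spermidine synthase, 1.02) and Npm1 (nucleophosmin, 0.68). Of 24 respiratory chain and ATP synthase genes 22 rose, led by Atp5g1 (1.32). The mitochondrially encoded share was not raised with them: its median was 2.19% in the 32 barcodes, against 2.52% in listed cells, a share that the choice of barcodes had capped at 5%.

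Stem cell and lymphoid genes were lower. Of 21 tested stem cell genes 14 fell and 0 rose (median −1.83), and of 14 lymphoid genes 9 fell and 0 rose (median −1.91). Hlf, a stem cell transcription factor, had 42.2 and 14.8 CPM in Helios-deficient and 10.6 and 57.7 CPM in wild-type left-out sums, against 110, 127, 140 and 147 CPM in listed cells (log2 fold change −1.99, SE 0.22). Meis1, also on the stem cell list, fell by 1.83. Ltb, lymphotoxin beta, fell by 2.54, and Cd27, a TNF receptor relative of early lymphoid progenitors, fell by 1.91. Of 22 interferon response genes 14 fell, among them Ifi203 (−2.24), Rtp4 (−1.46) and Gbp2 (−2.51). Of 12 tested genes of quiescence and cell cycle inhibition 7 fell, among them Txnip (−1.91) and Cdkn1c (−2.52, lost without Helios-deficient mouse 2). The largest falls were in Dach1 (a transcriptional cofactor, −4.66), S100a4 (a calcium-binding protein, −3.67), Aldoc (an aldolase, −3.67), Capn2 (a calpain, −3.42), Rgs1 (a regulator of G protein signalling, −3.39) and Nkx2-3 (a homeobox factor, −3.39).

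**Figure D3:**
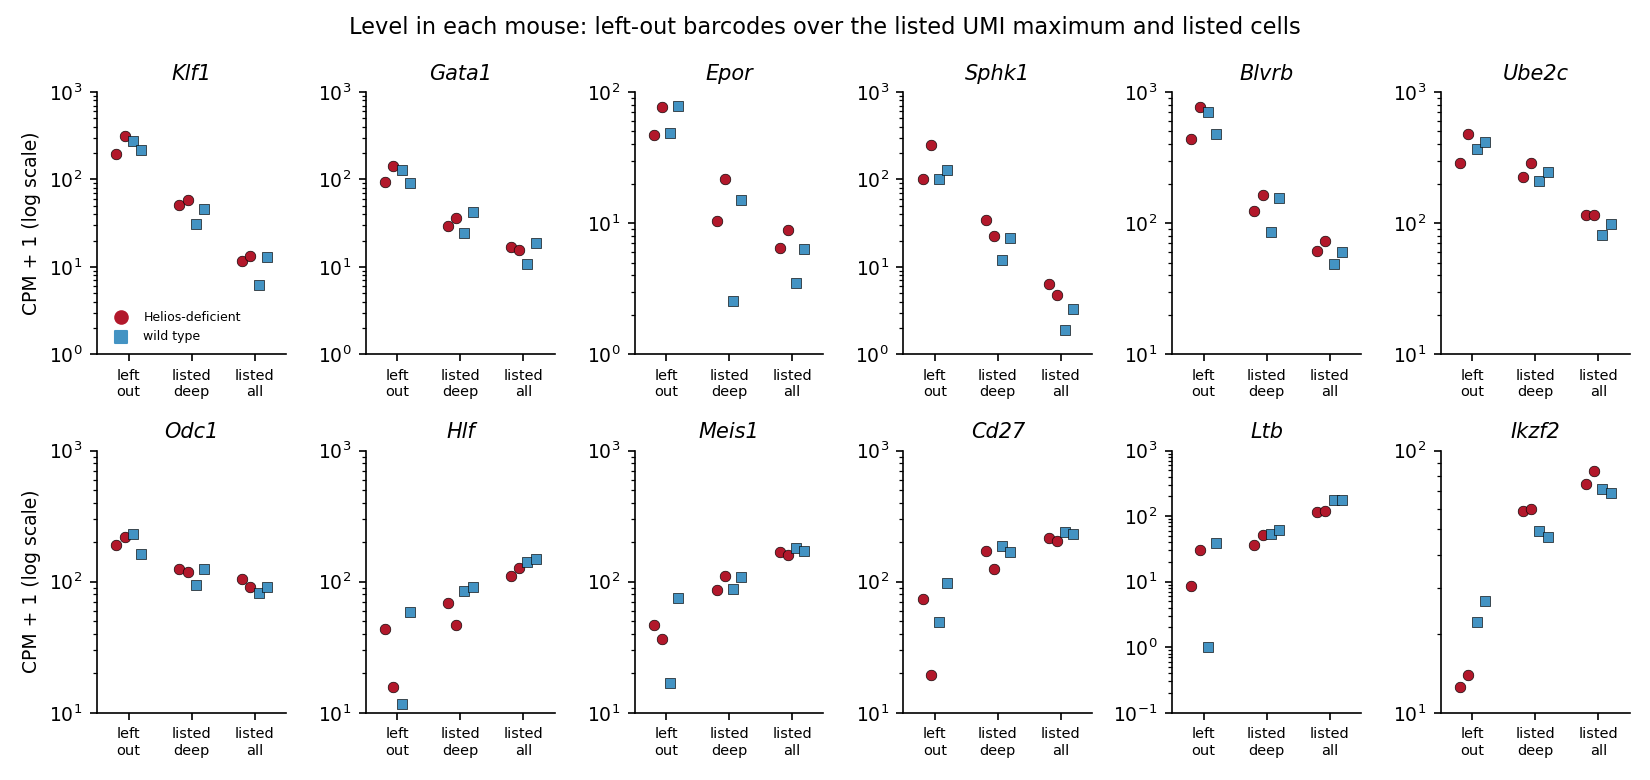
CPM + 1 (log scale) of 12 genes summed per mouse in left-out barcodes over the gene UMI maximum (left out), in listed cells with at least 20000 gene UMIs (listed deep) and in all listed cells; red circles are the 2 Helios-deficient mice and blue squares the 2 wild-type mice. Klf1 lies at 192 to 314 CPM in the left-out sums and at 5.14 to 12.2 CPM in listed cells, and deep listed cells lie between them for most of the genes.

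The targeted gene Ikzf2 was lower in these barcodes in both genotypes. It had 11.5 and 12.99 CPM in Helios-deficient and 21.2 and 25.6 CPM in wild-type left-out sums, against 73.6, 82.7, 70.6 and 67.7 CPM in listed cells, and its log2 fold change was −2.02 (SE 0.28) at an edgeR adjusted p of 2.4e-11. The 19 Klf1 barcodes held 8.52 CPM of Ikzf2, the other 13 held 31.4 CPM and the 36 left-out barcodes up to the UMI maximum 79.2 CPM. The Helios-deficient mice still had Ikzf2 RNA, which a 3 prime library can count from transcripts without an internal part, so its level checks neither the deletion nor the hashtags. Of the antibody targets, Flt3 fell by 2.13 and Cd48 by 0.81 (a call lost without Helios-deficient mouse 2), and Slamf1 (log2 fold change −0.64) and Itga2b (−0.36) did not pass.

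To bring the depths closer, the 32 barcodes were also set against the 145 listed cells with at least 20000 gene UMIs (median 23090, against 37900.5 in the 32). Of 5739 genes tested, 700 passed (12.2%), 348 higher (6.06%) and 352 lower (6.13%). Of the 700, 687 were also called against all listed cells, which share the deep cells. Without Helios-deficient mouse 2 there were 156 calls, without wild-type mouse 1 there were 419, and DESeq2 made 228. The erythroid genes stayed higher: 10 of 15 tested rose and 0 fell, with a median of 2.18, and 7 to 12 rose when 1 mouse at a time was left out. Klf1 stood at 49.4, 57.0, 29.6 and 44.7 CPM in the deep listed cells, each below each left-out value given above (log2 fold change 2.45, SE 0.17, edgeR adjusted p = 3.5e-07). Car1 had a log2 fold change of 2.63 (SE 0.48) and did not pass (edgeR adjusted p = 0.071).

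Division genes stood closer to those of the deep listed cells. Against them 6 of 46 G2 and M phase genes rose (median 0.18), among them Cenpa (0.98) and Ube2c (0.68), and 0 of 41 S phase genes rose while Ung, Cdca7 and Dtl fell. As a share of all gene UMIs, the G2 and M phase list took 0.827% and 0.880% in Helios-deficient and 0.865% and 0.773% in wild-type left-out sums. The shares were 0.692%, 0.777%, 0.587% and 0.708% in deep listed cells and 0.464%, 0.496%, 0.401% and 0.425% in all listed cells of those mice. The mean log2 ratio to all listed cells was 0.91 ± 0.13 and to deep listed cells 0.28 ± 0.19 (SD, 4 mice, higher in 4 of 4 for both), each with the smallest exact sign-flip p that 4 mice allow, 0.13. Growth genes stayed higher more often than division genes. Of 20 MYC and nucleolar genes 6 rose (median 0.40), and of 24 oxidative phosphorylation genes 13 rose (median 0.29). Among all genes tested 6.06% rose. Of 11 tested interferon response genes 2 fell, Ifi203 and Gbp7, with Rtp4 and Gbp2 not among the calls. Of 4 tested genes of quiescence and cell cycle inhibition 1 fell, Txnip. The calls of Gbp7 and Txnip were lost with DESeq2 and without either Helios-deficient mouse. Of 11 stem cell genes 4 still fell, among them Hlf, Meis1 and Hoxa9, and of 11 lymphoid genes 3, among them Lsp1 and Cd27, and Ikzf2 fell by 1.61 (SE 0.32, edgeR adjusted p = 0.0040). Without Helios-deficient mouse 2 the calls of Ikzf2, Hlf, Meis1, Hoxa9, Lsp1, Ung, Cdca7 and Dtl were lost, and without wild-type mouse 1 those of Hlf, Hoxa9 and Ung. Ung and Dtl were also lost without Helios-deficient mouse 1 or wild-type mouse 2, Hlf without the block for the mouse, and Hlf, Hoxa9, Ung, Cdca7 and Dtl with DESeq2.

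**Figure D4:**
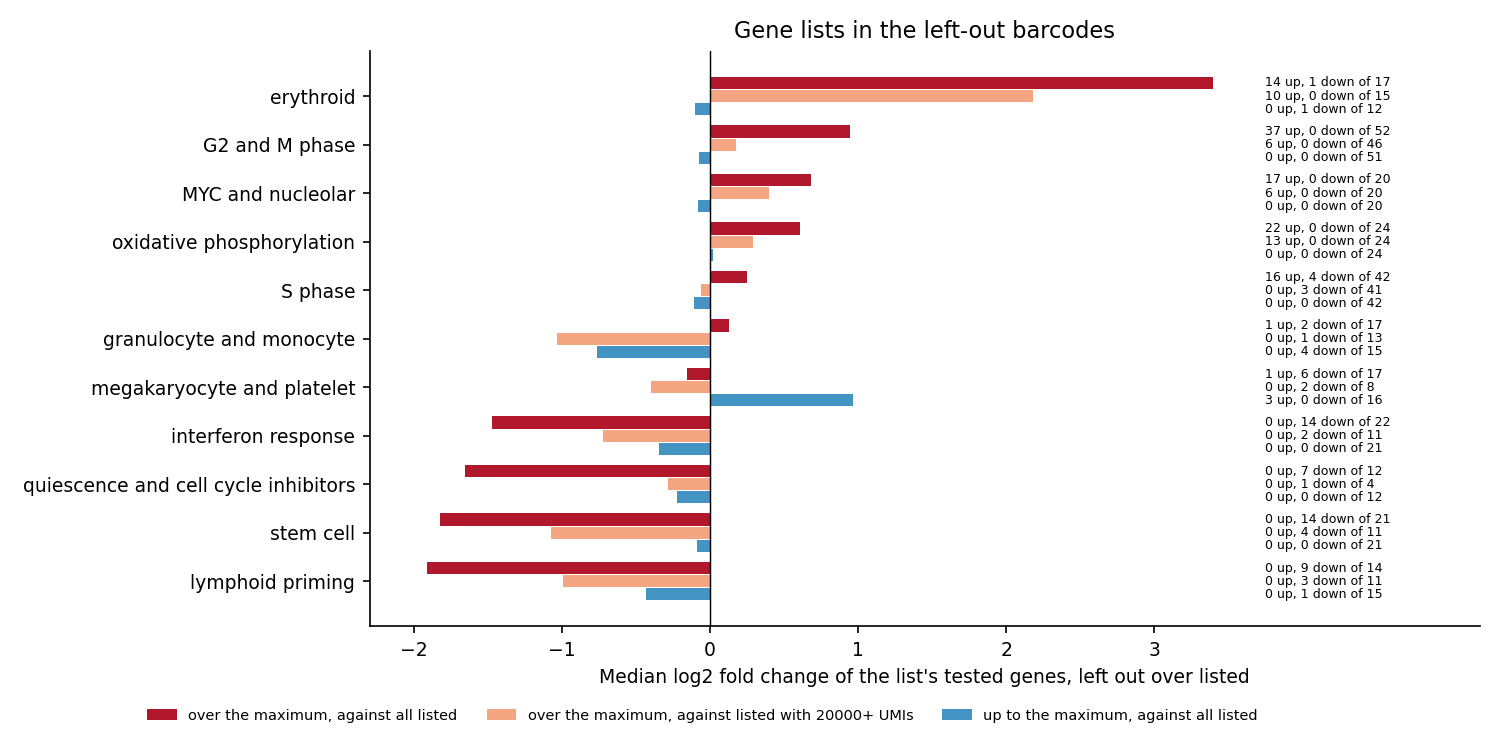
Median log2 fold change (x axis) of the tested genes of 11 lists, with the number of genes past the threshold in each direction, for left-out barcodes over the gene UMI maximum against all listed cells (red), the same against listed cells with at least 20000 gene UMIs (orange), and left-out barcodes up to the maximum against all listed cells (blue). The erythroid bars reach 3.40 and 2.18 for the barcodes over the maximum, and 0 of its 12 tested genes rose in the barcodes up to it.

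The 36 left-out barcodes up to the gene UMI maximum exceeded the antibody tag or hashtag maximum, and few genes passed against listed cells. In the same test 12 of 10028 genes passed (0.12%), 4 higher and 8 lower, with 505 at an unadjusted p under 0.05, 12 without the count filter and 3 with DESeq2. Only 542633 gene UMIs stood behind these sums, less than the 1299990 of the 32 deep barcodes, so smaller differences may not have been detectable. The megakaryocyte genes Nrgn, Itga2b and Cavin2 rose. Nrgn (neurogranin, found in platelets) had 461 and 228 CPM in Helios-deficient and 505 and 303.4 CPM in wild-type left-out sums, against 164, 165, 172 and 177 CPM in listed cells (log2 fold change 0.96, SE 0.15). Itga2b had 141, 40.7, 209 and 84.5 CPM in the left-out sums, against 40.1, 47.7, 42.8 and 46.3 CPM in listed cells (log2 fold change 1.15, SE 0.26). Helios-deficient mouse 2 thus went the other way, and this call was lost when Helios-deficient mouse 1 or wild-type mouse 1 was left out. Single barcodes of Helios-deficient mouse 1, wild-type mouse 1 and wild-type mouse 2 held 9, 13 and 12 Itga2b UMIs. The same barcodes held 132, 79 and 131 Pf4 UMIs, and the call without them was not tested. The myeloid granule genes Elane (−4.29), Ctsg (−1.42) and Mpo (−0.95) fell, as did Ly6c2, Car1, Jchain and Cd24a, and Pdcd4 rose by 0.71. Lower sums did not mean fewer barcodes with the RNA: Elane was found in 5.56% of the 36 and 4.90% of listed cells, Ctsg in 19.4% and 13.7%, Mpo in 52.8% and 41.2%, Car1 in 5.56% and 3.98% and Jchain in 5.56% and 2.77%, at unequal depth. Single listed cells held up to 550 Elane, 381 Mpo, 186 Ctsg, 205 Car1 and 1813 Jchain UMIs, against at most 1, 18, 10, 1 and 1 in the 36. The calls depended on the test: 8 of the named calls were lost with DESeq2 and 8 with no block for the mouse, and among the 11 named genes Nrgn alone passed under every alternative run. The G2 and M phase list had a mean log2 ratio of 0.02 ± 0.26 to listed cells (SD, 4 mice).

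All 68 barcodes together, the comparison planned first, blended these groups: 1872 of 10154 genes passed (18.4%), 1061 higher (10.4%) and 811 lower (7.99%). The balance turned without the count filter, with 896 higher and 1123 lower, and after thinning to 5000 UMIs, with 110 higher and 173 lower. Of the 1872, 1802 (96.3%) were also called for the 32 deep barcodes, which supply most of the UMIs, and those were 58.8% of the 3064. Leaving out Helios-deficient mouse 1, Helios-deficient mouse 2 or wild-type mouse 1 brought the count to 1222, 734 and 929. The erythroid list had 13 of 17 genes higher and the G2 and M phase list 32 of 52.

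Antibody tags were in excess in 24 barcodes, and in nearly all of them 1 antibody made up the excess. CD48 led in 16 (323 to 80701 UMIs, listed maximum 559), CD150 in 6 (530 to 3399, listed maximum 379) and CD135 in 2 (701 and 5777, listed maximum 143), and CD41 in 0. The other 3 tags of these barcodes summed to 109 to 478 UMIs, within the range of listed cells. Tag and RNA of the target were compared in the same barcodes. Flt3 had 0 UMIs in both CD135-led barcodes, and Slamf1, which encodes CD150, had 2 UMIs in 1 of the 6 CD150-led barcodes and 0 in the other 5. Those 2 UMIs put Slamf1 at 29.3 CPM in the CD150-led barcodes, against 6.24 CPM in listed cells, too few UMIs to read a difference. Cd48 was found in 11 of the 16 CD48-led barcodes, at 214 CPM in sum, against 184 CPM in listed cells. It had 0 UMIs in the barcodes with 1275, 1419, 4048, 4620 and 12559 CD48 tag UMIs, and 7 UMIs in the one with 80701. The 18 barcodes over the tag maximum alone had a median of 8753.5 gene UMIs, near the 7898 of listed cells. In 5 of the 6 CD48-led barcodes that were also over another maximum, gene UMIs were over as well (36651 to 40977).

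**Figure D5:**
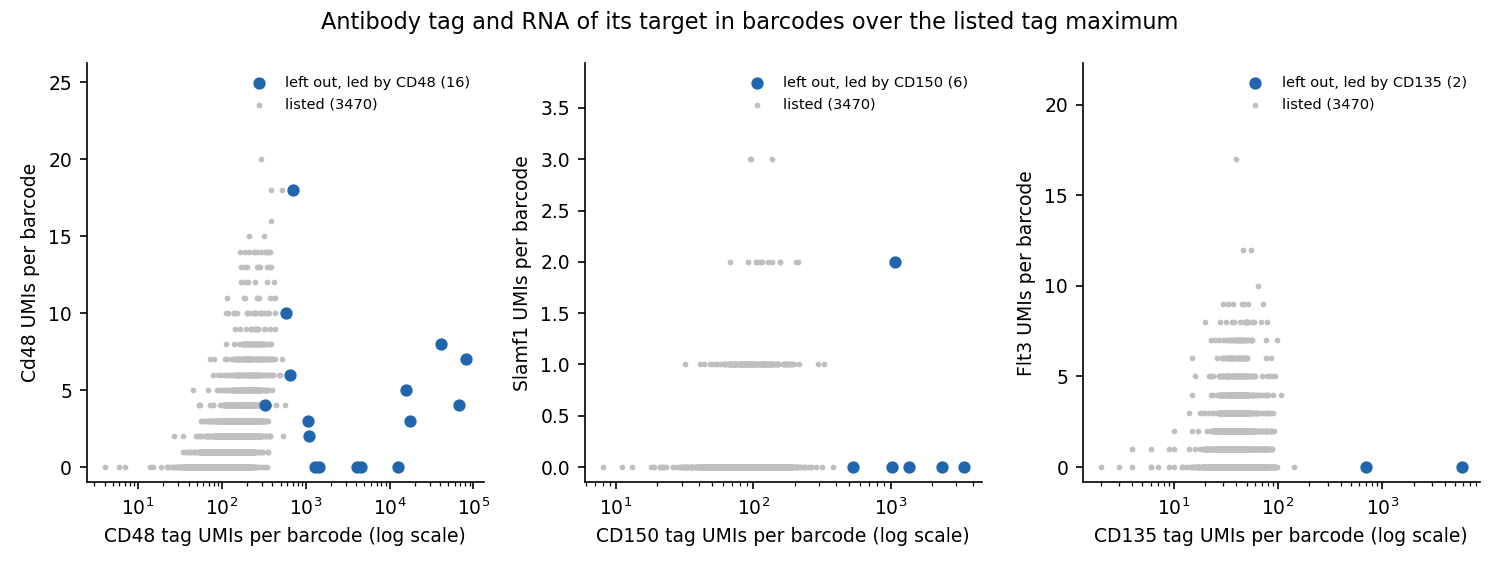
UMIs of the leading antibody tag (x axis, log scale) against UMIs of the RNA that encodes its target (y axis) in left-out barcodes led by CD48, CD150 and CD135 (blue) and in listed cells (grey). Tags run up to 80701 UMIs, while target RNA stays at 0 to 18 UMIs for Cd48, 0 to 2 for Slamf1 and 0 for Flt3.

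Hashtags were in excess in 24 barcodes, and the excess was in the called hashtag, which took 94.0% to 99.7% of their hashtag UMIs. The 17 over that maximum alone carried 3119 to 54907 UMIs of their own hashtag and had a median of 19396 gene UMIs, against 7898 in listed cells. Their mice were 4 and 4 Helios-deficient and 0 and 9 wild type. The own hashtag differed between mice in listed cells too, with medians of 492 and 642 UMIs in Helios-deficient and 576 and 853.5 UMIs in wild-type mice. Wild-type mouse 2, with the highest, gave 14 of the 24 hashtag-high barcodes.

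Between genotypes, within the 68 barcodes, Ikzf2 stood at 32.5 and 24.2 CPM in Helios-deficient left-out sums, against 25.97 and 54.1 CPM in wild-type left-out sums, and did not pass (log2 fold change −0.73, edgeR adjusted p = 0.95). Of 5227 genes tested 1 passed (0.0191%), with 256 at an unadjusted p under 0.05 and 1 with DESeq2. It was Pf4, at 1417 and 1164 CPM in Helios-deficient left-out sums, against 319 and 264 CPM in wild-type left-out sums (log2 fold change 2.10, SE 0.17, edgeR adjusted p = 0.0016). The call rests on few cells. Barcodes with 100 or more Pf4 UMIs numbered 2 in each Helios-deficient mouse, 0 in wild-type mouse 1 and 1 in wild-type mouse 2, and held 99.2% and 96.1% of the Pf4 UMIs of the Helios-deficient sums and 0% and 86.8% of those of the wild-type sums. In the remaining barcodes Pf4 stood at 13.9 and 50.5 CPM in Helios-deficient mice, against 319 and 36.5 CPM in wild-type mice. The limit of 100 was set on Pf4 itself, and 1 barcode of wild-type mouse 1 lay below it with 79 of that mouse's 86 Pf4 UMIs, so these levels are a description. In the listed cells Pf4 stood at 148 and 216 CPM in Helios-deficient mice, against 84.6 and 242 CPM in wild-type mice.

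The genotype difference itself did not differ detectably between left-out and listed cells for any gene. The interaction test called 0 of 10691 genes (0.0%) with edgeR and 0 with DESeq2, with 368 at an unadjusted p under 0.05 in edgeR. In data simulated with these libraries, the same test found 0 of 100 genes with a 2-fold difference, so it could not have shown one of that size. The test within left-out barcodes found 18 of 100 such genes, and the test of left-out over listed cells 59 of 100. Ctse, the cathepsin E gene, came closest by p among the rises. It had 47.2 and 99.7 CPM in Helios-deficient and 186 and 99.6 CPM in wild-type left-out sums, and 8.73 and 13.7 CPM in Helios-deficient and 80.9 and 81.9 CPM in wild-type listed cells (difference of log2 fold changes 1.99, SE 0.36, edgeR adjusted p = 0.060). Within the 19 Klf1 barcodes alone Ctse stood at 133 and 150 CPM in Helios-deficient mice, against 279 and 255 CPM in wild-type mice. In the listed Klf1 cells the genotypes overlapped, at 85.0 and 268 CPM in Helios-deficient mice, against 163 and 240 CPM in wild-type mice. Dntt (terminal transferase of early lymphoid cells) had 26.6 and 36.3 CPM in Helios-deficient and 81.6 and 189 CPM in wild-type left-out sums, and 183 and 301.97 CPM in Helios-deficient and 242 and 242 CPM in wild-type listed cells (−2.16, SE 0.38, edgeR adjusted p = 0.068).

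Markers of other cell types that a sort could carry along were summed over the 32 deep barcodes of each mouse. Of the 12 T and NK cell markers 10 had 0 UMIs, among them Cd3e and Cd4, and of the 12 mature neutrophil markers 10, among them S100a9 and Ngp. Of the 12 endothelial and stromal markers 8 had 0 UMIs, of the 14 macrophage markers 3, of the 13 B and plasma cell markers 6, of the 12 mast cell and basophil markers 6, of the 7 eosinophil markers 4 and of the 12 dendritic cell markers 5. The T and NK list summed to 0 to 12.8 CPM in the left-out sums, against 21.5 to 39.1 CPM in listed cells, the neutrophil list to 0 to 7.67 against 5.62 to 18.7 CPM, and the endothelial and stromal list to 5.31 to 35.2 against 76.0 to 88.0 CPM. In deep listed cells the same lists, in this order, summed to 8.26 to 14.1, 6.23 to 105 and 45.8 to 54.5 CPM. The mast cell and basophil list summed to 10.6 to 57.7 CPM, against 28.6 to 42.8 CPM in listed cells, the eosinophil list to 0 to 6.41 against 2.62 to 5.33 CPM, and the dendritic cell list to 21.2 to 775 against 224 to 278 CPM. The macrophage list was higher in 3 of 4 mice, at 46.0 and 68.7 CPM in Helios-deficient and 47.8 and 25.6 CPM in wild-type left-out sums, against 27.9, 44.5, 26.1 and 58.5 CPM in listed cells, and its part in the results was not tested. Of the macrophage list, Slc40a1 (ferroportin, the iron exporter, which red cell precursors also use) rose by 3.24. The immunoglobulin-led barcode alone lifted Igkc to 47980 CPM in the sum of wild-type mouse 2, against 23.0 to 47.8 CPM in the other left-out sums, and without it 3122 genes were called in place of 3064.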

How the data were processed

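The deposited matrix holds raw UMI counts of 31053 genes, 4 antibody tags and 4 hashtags in 4108 barcodes, and the authors also deposited hashtag calls and a list of kept cells. Per the submitters' processing notes, Cell Ranger, Seurat 3.0.0 and mm10 were used, and the matrix header names software 3.0.2. Neither the criteria of the list nor the demultiplexing settings are given in the sources used here. Gene UMIs per single-mouse barcode class were summed per mouse (338852, 661704, 269507 and 572560 in the left-out barcodes) and tested with edgeR 4.0.16 (quasi-likelihood, robust, TMM, filterByExpr, mouse as block; R 4.3.3), with DESeq2 1.42.0 as alternative, after a test on simulated counts. The genotype test had no block, since a mouse has 1 genotype. Shares used exact permutation or sign-flip tests, intervals were Clopper-Pearson at 95%, and thinning was to 5000 UMIs (numpy 2.4.6). Named genes were the antibody targets, Ikzf2, up to 4 per list and the 10 largest rises and falls. Those rises and falls, of left-out over listed cells, came from called genes of at least 10 CPM with the same direction in all 4 mice. The barcodes and gene lists were chosen with earlier results of these data known. The planned tag tests are not given as tests, because tag totals separated the barcodes from the list. Doublets between mice were removed by the deposited calls, and no doublet caller was run. The mouse block rests on each mouse giving cells to both classes. A few genes are not reported here. Genes under 36 repeated symbols were kept apart by ID.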

Additional observations from a re-analysis of the deposited data

Results flagged for a closer look

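Barcodes outside the compared classes also passed the limits that the left-out barcodes passed. Of the 231 doublets called by hashtag, 35 exceeded a listed maximum, 10 in gene UMIs, 16 in antibody tags and 21 in hashtags. Of the 304 left-out barcodes with at least 5% mitochondrial UMIs, 3 exceeded the tag maximum, with 18869 CD150 UMIs and 629 CD48 UMIs in Helios-deficient mouse 1 and 668 CD48 UMIs in wild-type mouse 2.

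For 4 genes, picked by this pattern among the named genes, both Helios-deficient mice moved one way and both wild-type mice the other way. This difference was not tested for each gene alone. The interaction test, which called 0 genes, took all 68 left-out barcodes together and was not run for those over the gene UMI maximum. Itga2b in barcodes over the gene UMI maximum had 65.2 and 50.1 CPM in Helios-deficient left-out sums, against 40.1 and 47.7 CPM in their listed cells, and 0 and 3.20 CPM in wild-type left-out sums, against 42.8 and 46.3 CPM in theirs (log2 fold change −0.36). The Pf4-led barcodes of the Helios-deficient mice held 4 to 22 Itga2b UMIs each. Pdgfrb over all left-out barcodes had 8.85 and 7.56 CPM in Helios-deficient left-out sums, against 20.8 and 15.1 CPM in their listed cells, and 18.6 and 17.5 CPM in wild-type left-out sums, against 15.99 and 15.7 CPM in theirs (log2 fold change −0.28). C1qb and C1qc, macrophage complement genes, had log2 fold changes of −0.42 and −0.052 in barcodes over the maximum and rest on 0 to 3 UMIs per left-out sum.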

How the results depend on the processing

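The comparison of all left-out with all listed cells (1872 calls) made 283 calls after thinning to 5000 UMIs and 94 against listed cells with at least 20000 UMIs, with fewer genes tested in both. The barcodes over the UMI maximum alone gave 3064 calls and those up to it 12 (against deep listed cells 700 and 56). Leaving out 1 mouse at a time gave 734 to 2324 calls for all left-out barcodes, 1787 to 2765 for those over the maximum, 156 to 708 for those against deep listed cells and 6 to 25 for those up to it. The lowest count came without Helios-deficient mouse 2 each time. DESeq2 made 1906, 228 and 3 calls in the last 3 comparisons. The mouse gave cells to both classes, and without the replicate block for it the counts were 2320, 3496, 815 and 3. No paired analysis was possible for the genotype comparison because no mouse has both genotypes. Its 1 call became 18 without the count filter, 3 after thinning and 2 to 109 when 1 mouse was left out, and the interaction's 0 calls became 5 without the filter and 1 to 33 without 1 mouse. Those fits leave 1 mouse in a genotype, which is assumed to vary like the others. Pf4 passed in all 10 alternatives.

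Ikzf2 (log2 fold change −0.97 over all left-out barcodes) was 0.043 in barcodes up to the UMI maximum, 0.55 in those against deep listed cells and 0.23 over every left-out single-mouse barcode. In barcodes up to the maximum against deep listed cells, Flt3 was 0.56, Mt2 −7.82 (a fitted value, as its left-out sums were at 0 UMIs) and Rgs1 0.39, opposite to their direction over all left-out barcodes. Igsf6, at 42.5 CPM in wild-type mouse 1 and at most 3.84 CPM in the other sums over the maximum, was 1.76 and −0.70 without that mouse, and 2.78 without Helios-deficient mouse 2. The log2 ratio of the mean CD41 tag was 0.44 and −0.71 per 1000 gene UMIs, and that of CD150 was 1.34 by means and 0.29 by medians. The G2 and M phase share of all left-out barcodes was 0.70 on the log2 scale over all listed cells and 0.078 over deep ones. RNA of 2 lineages was found in 3.03% of left-out barcodes thinned to 5000 UMIs, 11.3% thinned to 10000 and 26.5% unthinned. The cause of these changes was not tested. Of the 84 genes named for barcodes over the maximum, 728 alternative values kept direction and call, 25 lost the call and 1 turned.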
